A study of Homo sapiens with 6 samples.

Results

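The aldo-keto reductases examined here are the 10 genes AKR1A1, AKR1B1, AKR1B10, AKR1B15, AKR1C1, AKR1C2, AKR1C3, AKR1C4, AKR1E2 and AKR7A2, taken by symbol from a deposited list of 63241 genes. RNA was sequenced from PANC-1 cells, a human line grown from a pancreatic carcinoma, with the genotype label WT. For 24 h the cells were kept in 20 µM Schisandrin B, a plant lignan, or in vehicle (DMSO below 0.1%), and each group has 3 libraries. The title of the series concerns ferroptosis, a form of cell death that runs through iron and oxidised membrane lipids.

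Aldo-keto reductases use NADPH to turn aldehydes and ketones into alcohols. Their substrates include sugars, steroids, prostaglandins, retinal and the reactive aldehydes that form when membrane lipids are oxidised. Several human members, AKR1C1 and AKR1B10 among them, are known as targets of NRF2, the transcription factor of the oxidative stress response. The AKR1C genes lie side by side on chromosome 10 and resemble each other so closely that short reads can fit more than one of them.

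The Schisandrin B libraries held 13667700 to 16045095 gene counts and the vehicle libraries 13656826 to 18289410. Of all genes, 15773 had enough counts for the test, and 7 of the 10 members were among them. Levels are given as CPM, that is counts set to library totals of equal size with TMM factors. Pearson's r of their log2 values across those genes, which are not independent replicates, lay at 0.986 to 0.988 for pairs of the same group and at 0.921 to 0.929 for pairs of different groups. The epithelial keratins KRT8, KRT18 and KRT19 were present and lower with Schisandrin B, EPCAM, CDH1 and KRT7 were near 0 in both groups, and all 7 acinar and endocrine markers were at 0. The 5 leukocyte markers summed to 0.139 to 1.10 CPM with Schisandrin B and 0.489 to 0.666 CPM in vehicle. The 4 endothelial markers summed to 1.32 to 1.94 CPM with Schisandrin B and 13.4 to 13.6 CPM in vehicle, led by CDH5 (log2 fold change -3.32), and the 6 fibroblast and stellate markers to 43.9 to 45.6 CPM with Schisandrin B and 215 to 231 CPM in vehicle, led by COL1A2 (-2.34). The part of these genes in the results on the members was not tested. Nothing in the labels states that the 3 libraries of a group are separate cultures, so p-values reflect only how far these libraries spread, which may be technical. RNA came from whole cultures, so less RNA per cell and fewer cells with a transcript cannot be told apart.

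The members did not move as a block. AKR1C1, AKR1C2 and AKR1E2 were higher with Schisandrin B, AKR7A2 and AKR1B1 were lower, and AKR1A1 and AKR1C3 did not pass the test. AKR1C1 had the largest difference, at 3.61-fold, and AKR7A2 the largest in the other direction, at 2.31-fold lower. The 3 higher and 2 lower calls among 7 tested members stand beside a background in which edgeR called 35.0% of all tested genes higher and 35.2% lower at a Benjamini-Hochberg adjusted p below 0.05. The groups did not overlap for 6 of the 7, against 73.5% of all tested genes. The median log2 fold change, Schisandrin B over vehicle, was 0.49 over the 7 members and 0.0004 over all tested genes.

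**Figure D1:**
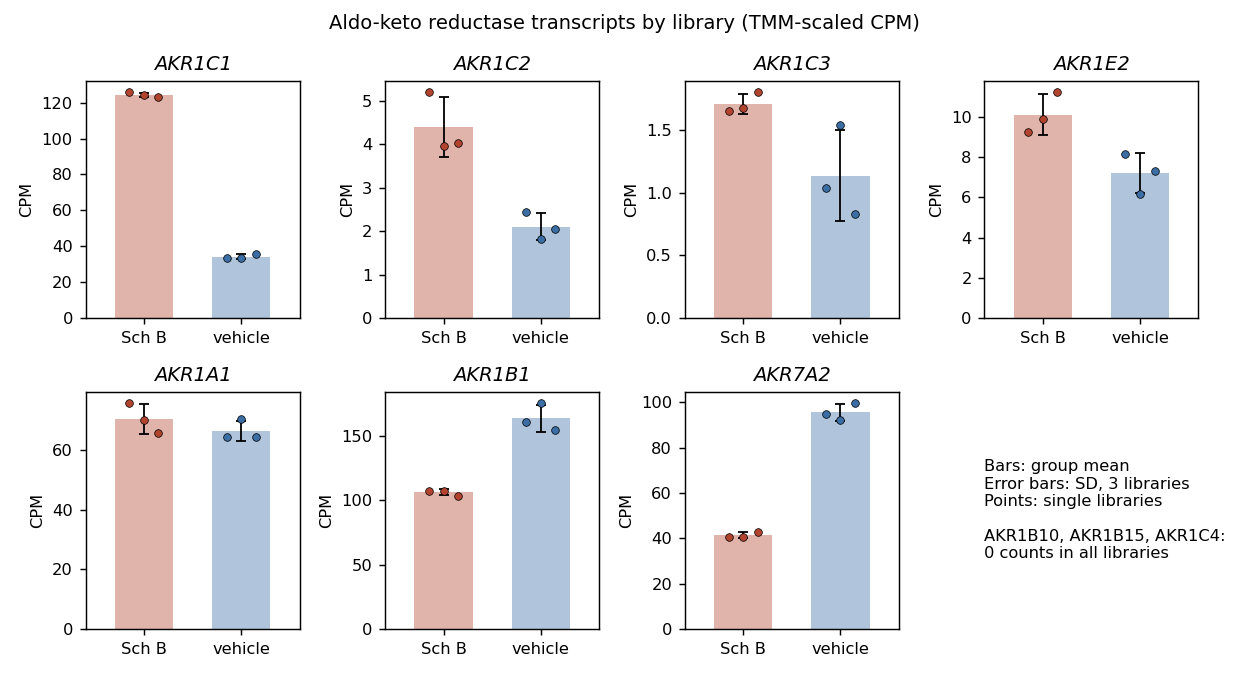
TMM-scaled CPM of the 7 members with counts, 1 panel per gene with its own axis from 0, in the 3 Schisandrin B libraries (Sch B, left) and the 3 vehicle libraries (right), with points for libraries, bars for group means and error bars of 1 SD. AKR1C1 sits at 123 to 126 CPM with Schisandrin B and at 33.2 to 36.0 CPM in vehicle, and AKR1A1 is the member whose groups overlap.

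AKR1C1, a ketosteroid reductase that inactivates progesterone and also acts on lipid aldehydes, lies at chr10:4963253-4983283 on the plus strand of GRCh38. It had 126, 124 and 123 CPM in the Schisandrin B libraries, against 33.2, 33.8 and 36.0 CPM in the vehicle libraries. Every Schisandrin B library was far above every vehicle library, and the libraries of each group lay close together. The means were 124 ± 1.35 CPM with Schisandrin B and 34.3 ± 1.46 CPM in vehicle (SD, n = 3 each). The log2 fold change was 1.85 (SE 0.05), with an edgeR adjusted p of 8.46e-15. These values rest on 1712 to 2058 counts per Schisandrin B library and 449 to 649 per vehicle library.

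AKR1C2, which reduces dihydrotestosterone to a weak androgen, lies beside AKR1C1 on the opposite strand, at chr10:4987775-5018031. It had 5.19, 3.97 and 4.03 CPM in the Schisandrin B libraries, against 2.44, 1.82 and 2.05 CPM in the vehicle libraries. The groups did not overlap, but the level was low, with 56 to 85 counts per Schisandrin B library and 26 to 37 per vehicle library. The log2 fold change was 1.07 (SE 0.22, edgeR adjusted p = 3.24e-04), or 2.09-fold. On log2(FPKM + 1), a scale that understates the change of low genes, it was 0.59.

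AKR1C3, a reductase that makes testosterone and also a prostaglandin F synthase, lies at chr10:5035354-5107686 on the plus strand. It had 1.65, 1.67 and 1.80 CPM in the Schisandrin B libraries, against 1.04, 1.54 and 0.832 CPM in the vehicle libraries. All 3 Schisandrin B libraries were above all 3 vehicle libraries, and vehicle replicate 2 was near the Schisandrin B values. The log2 fold change of 0.60 (SE 0.30) did not pass the test (edgeR adjusted p = 0.0819). Without vehicle replicate 2 it was 0.88 with an adjusted p of 0.0263, on 14 to 27 counts per library in all. AKR1C4, a liver enzyme of bile acid synthesis at chr10:5195462-5218949, had no count in any library. A count of 0 over the 3 libraries of a group allows up to 0.0682 CPM with Schisandrin B and 0.0645 CPM in vehicle, counting error only.

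The 4 AKR1C genes are near copies in their coding sequence. AKR1C1 and AKR1C2 differed at 19 of 972 coding bases (98.0% identity), AKR1C1 and AKR1C3 were 91.7% identical, and AKR1C1 and AKR1C4 were 88.9% identical, in the longest coding transcripts of GENCODE release 29. The first 90 coding bases of each are shown because they let a reader see what a short read has to tell these genes apart. Capitals mark the base that differs between AKR1C1 and AKR1C2 in that pair, and bases that differ from AKR1C1 in AKR1C3 (11) and AKR1C4 (12).
AKR1C1: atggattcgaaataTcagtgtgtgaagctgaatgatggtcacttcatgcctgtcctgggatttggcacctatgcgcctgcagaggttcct
AKR1C2: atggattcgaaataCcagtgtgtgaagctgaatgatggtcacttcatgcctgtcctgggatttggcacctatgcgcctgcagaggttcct
AKR1C3: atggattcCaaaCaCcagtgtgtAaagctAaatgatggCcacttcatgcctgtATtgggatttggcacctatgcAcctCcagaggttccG
AKR1C4: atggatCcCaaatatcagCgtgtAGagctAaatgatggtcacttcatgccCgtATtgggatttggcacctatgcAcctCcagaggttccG

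Of all stretches of 50 bases in the longest AKR1C2 transcript, 52.2% were found without a mismatch in a transcript of another gene, against 28.7% for AKR1C1, 12.1% for AKR1C3 and 11.9% for AKR1C4. At 100 bases the shares were 32.9% for AKR1C2, 17.4% for AKR1C1, 4.98% for AKR1C3 and 0.456% for AKR1C4. AKR1C1 was the partner in 50.8% of all 50-base stretches of AKR1C2. No label or header gives the read length or the treatment of reads that fit several genes, so how counts were split among AKR1C1, AKR1C2 and AKR1C3 is uncertain. The values for AKR1C2 are the most exposed, since AKR1C1 held many more counts. AKR1A1 and AKR1E2 shared no 50-base stretch with another gene, AKR1B1 shared 4.78%, and AKR7A2 shared 8.0%, with AKR7L and AKR7A3.

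**Figure D2:**
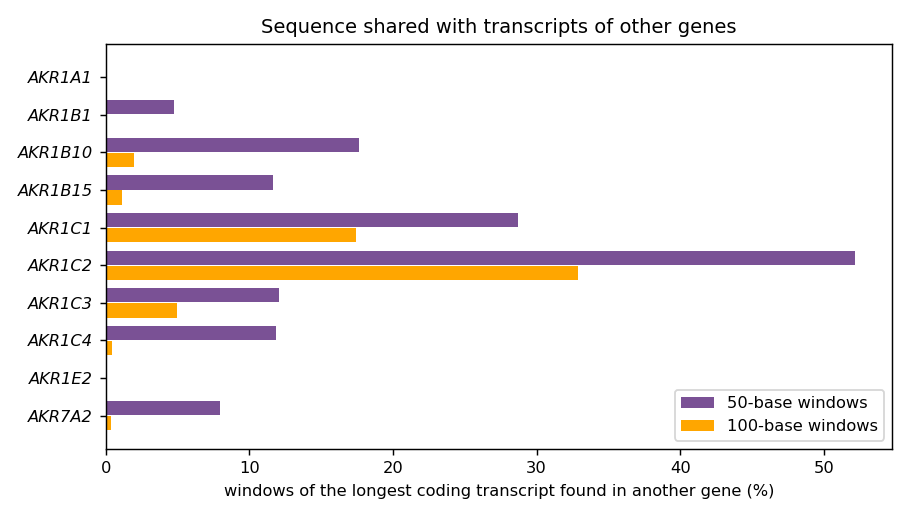
Percent of all 50-base and 100-base stretches of each member's longest coding transcript that also occur, without a mismatch, in a transcript of another gene. AKR1C2 stands highest at both lengths (52.2% and 32.9%), and AKR1A1 and AKR1E2 are at 0.

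Summed over the AKR1C genes, the level was 130 ± 1.94 CPM with Schisandrin B and 37.6 ± 1.14 CPM in vehicle (SD, n = 3 each). AKR1C1 made up 94.8%, 95.7% and 95.5% of AKR1C counts in the Schisandrin B libraries, against 90.5%, 91.0% and 92.6% in the vehicle libraries. The exact 95% binomial intervals ran from 93.8% to 96.5% over the Schisandrin B libraries and from 87.6% to 94.4% over the vehicle libraries, for counting error only. Counts are not set to length here, and the longest coding transcript has 6705 bases for AKR1C1, 3756 for AKR1C2 and 1807 for AKR1C3. Per length, AKR1C1 averaged 24.0 of 26.5 FPKM with Schisandrin B and 5.57 of 6.92 FPKM in vehicle. The log2 ratio of AKR1C1 to AKR1C2 averaged 4.82 ± 0.202 with Schisandrin B and 4.02 ± 0.237 in vehicle, and that of AKR1C1 to AKR1C3 averaged 6.16 ± 0.0812 with Schisandrin B and 4.92 ± 0.482 in vehicle (SD, n = 3 each). Neither ratio overlapped between groups, and the exact two-sided permutation p was 0.1 for both, the smallest that 3 against 3 allows, or 0.125 after Benjamini-Hochberg adjustment over the 5 pairs compared. The ratio of AKR1C2 to AKR1C3 overlapped between groups (difference 0.43, exact p = 0.5).

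The bases before a RefSeq start of AKR1C1 and of AKR1C2 are near copies too. In the 250 bases before the first listed RefSeq start of each gene (GRCh38.p14), AKR1C1 and AKR1C2 shared an unbroken run of 245 bases. AKR1C1 and AKR1C3 were 72.4% identical there, with no shared run over 12 bases. Only 88 bases of the AKR1C1 window lie before the deposited start of that gene, chr10:4963253, and the rest lie inside its span. The AKR1C2 window lies wholly inside the deposited span of AKR1C2. Its minus-strand start is chr10:5018031, and the bases before that start were not compared. The stretch of the AKR1C1 and AKR1C2 windows outside annotated exons is printed to show the likeness of a pair of neighbours with unequal changes, 3.61-fold and 2.09-fold. It is chr10:4963165-4963252 on the plus strand for AKR1C1 and chr10:5004024-5004107 on the minus strand for AKR1C2. Capitals mark the first 4 bases of AKR1C1, which fall before the AKR1C2 window begins. They show where that window starts, and the AKR1C2 bases at that place were not compared.
AKR1C1: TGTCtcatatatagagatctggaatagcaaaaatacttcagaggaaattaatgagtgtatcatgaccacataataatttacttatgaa
AKR1C2: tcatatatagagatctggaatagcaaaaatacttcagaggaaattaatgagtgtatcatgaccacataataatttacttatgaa

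AKR1E2, which reduces anhydrofructose, a sugar formed from glycogen, lies at chr10:4786629-4848062 upstream of the AKR1C genes. It had 9.22, 9.88 and 11.2 CPM in the Schisandrin B libraries, against 8.14, 6.15 and 7.32 CPM in the vehicle libraries. The groups did not overlap, and the gap between the lowest Schisandrin B and the highest vehicle library was narrow. The log2 fold change was 0.49 (SE 0.14, edgeR adjusted p = 0.00608), or 1.40-fold. The authors' deposited table gives AKR1E2 an adjusted p of 0.0589, on the other side of 0.05.

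AKR1B1, aldose reductase, turns glucose into sorbitol in the first step of the polyol pathway and lies at chr7:134442356-134459284 on the minus strand. It had 107, 107 and 103 CPM in the Schisandrin B libraries, against 160, 175 and 155 CPM in the vehicle libraries. All Schisandrin B libraries were below all vehicle libraries. The log2 fold change was -0.62 (SE 0.05, edgeR adjusted p = 8.14e-09), or 1.54-fold lower. Its neighbours AKR1B10, a retinal reductase, at chr7:134527567-134541412, and AKR1B15, at chr7:134549110-134579875, had no count in any library, with the same upper limits as AKR1C4.

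AKR7A2, which reduces succinic semialdehyde and aldehydes derived from aflatoxin, lies at chr1:19303965-19312144 on the minus strand. It had 40.7, 40.6 and 42.9 CPM in the Schisandrin B libraries, against 94.8, 92.4 and 99.7 CPM in the vehicle libraries. The groups were far apart, with means of 41.4 ± 1.31 CPM with Schisandrin B and 95.7 ± 3.74 CPM in vehicle (SD, n = 3 each). The log2 fold change was -1.21 (SE 0.05, edgeR adjusted p = 2.96e-12). The paralogs AKR7A3 and AKR7L, with which it shares sequence, had 21 and 24 counts over all Schisandrin B libraries and 15 and 14 over all vehicle libraries, too few to be tested.

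AKR1A1, aldehyde reductase, which reduces a wide range of aldehydes, lies at chr1:45550543-45570049 on the plus strand. It had 75.9, 70.3 and 65.7 CPM in the Schisandrin B libraries, against 64.6, 70.5 and 64.4 CPM in the vehicle libraries. The groups overlapped, and the log2 fold change of 0.09 (SE 0.06) did not pass the test (edgeR adjusted p = 0.202). It passed under upper-quartile scaling (0.15, adjusted p = 0.0324) and when 5 CPM or more was asked of 3 libraries (0.17, adjusted p = 0.0152). Against AKR1A1 in the same library, where scaling cancels, AKR7A2 had a log2 ratio of -0.77 ± 0.144 with Schisandrin B and 0.52 ± 0.122 in vehicle, and AKR1B1 one of 0.59 ± 0.0788 with Schisandrin B and 1.30 ± 0.0292 in vehicle (SD, n = 3 each). Neither ratio overlapped between groups, and each had an exact two-sided permutation p of 0.1, or 0.125 after adjustment over the 5 pairs.

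**Figure D3:**
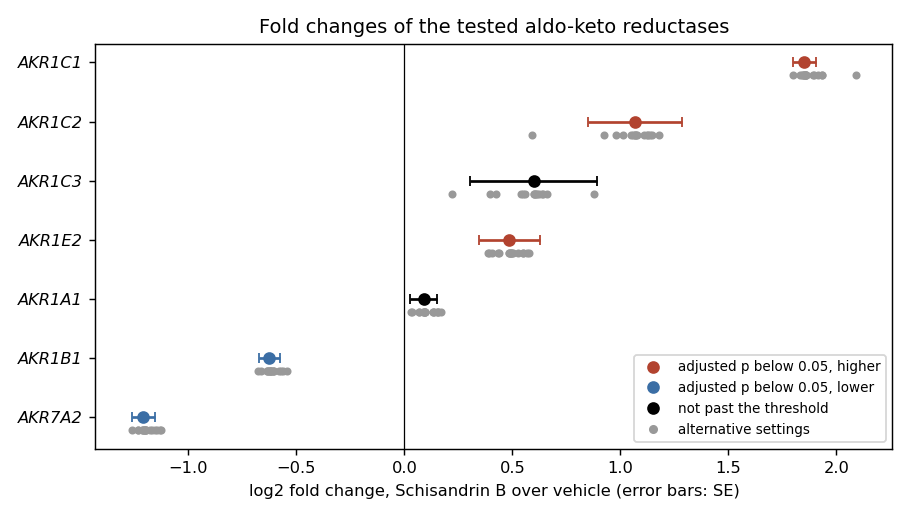
Log2 fold change, Schisandrin B over vehicle, of the 7 tested members with bars of 1 SE, with grey points below each for its values under the alternative settings. AKR1C1 (1.85), AKR1C2 (1.07) and AKR1E2 (0.49) lie above 0 and AKR1B1 (-0.62) and AKR7A2 (-1.21) below it in every setting in which each was fitted.

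Levels can be compared between members only per length, for which the authors' FPKM was used. In Schisandrin B libraries the order was AKR1B1 (67.2 ± 4.92 FPKM), AKR1A1 (45.4 ± 4.43), AKR7A2 (26.9 ± 1.19), AKR1C1 (24.0 ± 1.0), AKR1E2 (8.70 ± 0.259), AKR1C2 (1.34 ± 0.223) and AKR1C3 (1.09 ± 0.0245), all in FPKM (SD, n = 3), and no neighbours in it overlapped. In vehicle libraries it was AKR1B1 (103 ± 4.56 FPKM), AKR7A2 (60.1 ± 2.74), AKR1A1 (40.6 ± 0.884), AKR1E2 (6.44 ± 0.923), AKR1C1 (5.57 ± 0.380), AKR1C3 (0.801 ± 0.221) and AKR1C2 (0.552 ± 0.0895). There AKR1E2 overlapped AKR1C1 and AKR1C3 overlapped AKR1C2. The length implied by counts and FPKM was 5.10 to 6.39 kb for AKR1C1 and 3.14 to 3.90 kb for AKR1C2. At that length the FPKM of AKR1C1 is low for its CPM. The longest GENCODE coding transcript of AKR1C1 has 5541 bases after its coding part. Which transcript the reads came from was not tested. The implied length of AKR1C1 was shorter in every Schisandrin B library than in every vehicle library. Its FPKM therefore differed more between groups than its CPM.

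The makeup of the family differed between the groups. AKR1C1 made up 13.8% ± 0.271 of the summed FPKM of the members with Schisandrin B and 2.57% ± 0.186 in vehicle, while AKR7A2 made up 15.4% ± 1.06 with Schisandrin B and 27.8% ± 1.31 in vehicle (SD, n = 3 each). AKR1B1 was the largest part in both groups, at 38.5% ± 0.587 with Schisandrin B and 47.4% ± 1.99 in vehicle. Summed over all 10 members the level was 358 ± 6.92 CPM with Schisandrin B and 370 ± 9.58 CPM in vehicle, or 175 ± 10.4 FPKM with Schisandrin B and 217 ± 0.874 FPKM in vehicle. The FPKM shares and sums carry the shift in the implied length of AKR1C1 given above. All of these shares and sums are descriptions, and no test was made on them.

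**Figure D4:**
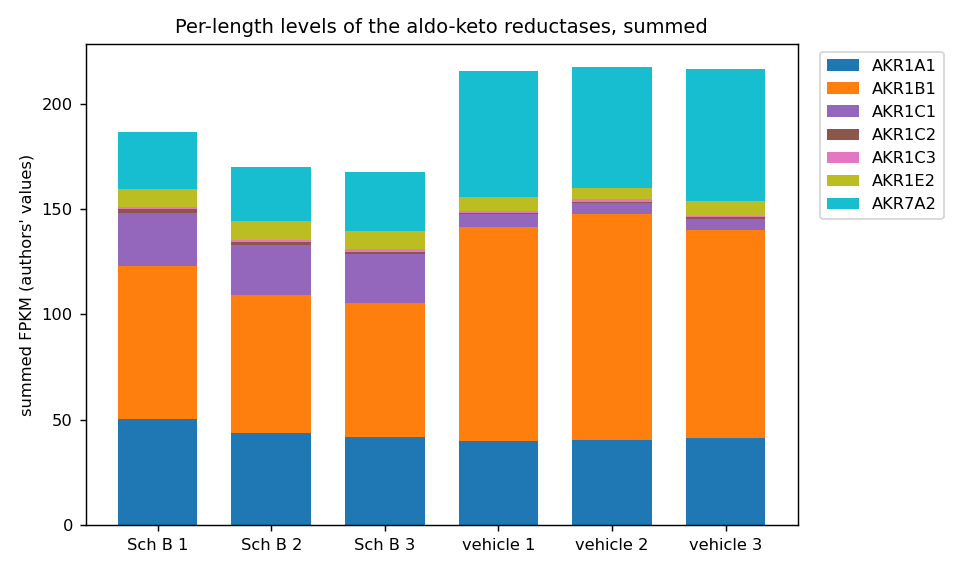
Summed FPKM of the members in each library, the 3 Schisandrin B libraries (Sch B) left of the 3 vehicle libraries, each bar split by member. AKR1C1 averages 13.8% of the sum with Schisandrin B and 2.57% in vehicle, and AKR1B1 is the largest part of every bar.

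The genes whose profile over the 6 libraries was most like that of AKR1C1, by Euclidean distance of log2 CPM centred on the vehicle mean among 10540 protein-coding genes of at least 5 CPM, were SLC7A5 (distance 0.0925), a carrier of large neutral amino acids, HK2 (0.109), hexokinase 2, and DNAJC10 (0.141), a disulfide reductase of the endoplasmic reticulum. Their log2 fold changes were 1.89 (SE 0.04), 1.84 (SE 0.06) and 1.86 (SE 0.06). That these lie near the value of AKR1C1 follows from how the genes were picked.

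Genes near the clusters were called in both directions, beside 35.0% higher and 35.2% lower over all tested genes, and counts this small are not set apart from those shares. Within 500 kb of the AKR1C cluster and AKR1E2, 4 of 7 tested genes outside the family were higher, 2 lower and 1 neither. TASOR2, a factor of gene silencing, was higher (log2 fold change 0.60), and NET1, an exchange factor for RhoA, and ASB13, a ubiquitin ligase adaptor, were lower (-1.32 and -0.32). The opposite-strand lncRNA ENSG00000287023, singled out after its values were seen, starts 1.53 kb before the deposited start of AKR1E2 and runs away from it, and the RefSeq starts of AKR1E2 lie further downstream. It had 86.1, 94.0 and 87.7 CPM in the Schisandrin B libraries, against 65.2, 60.0 and 61.8 CPM in the vehicle libraries, a log2 fold change of 0.52 (SE 0.05) beside 0.49 for AKR1E2. Near the AKR1B cluster 3 of 7 were higher, 2 lower and 2 neither, with BPGM, bisphosphoglycerate mutase, at -0.96, EXOC4, an exocyst subunit, at -0.34, LRGUK at 1.28, SLC35B4, a nucleotide sugar carrier, at 0.25 and CALD1, caldesmon, at 0.10 (log2 fold changes). EXOC4 and LRGUK did not pass in limma on log2(FPKM + 0.1) (adjusted p = 0.0727 and 0.179). The CALD1 call was lost without any 1 of Schisandrin B replicates 1 and 3 and vehicle replicates 1, 2 and 3 (adjusted p = 0.0601, 0.0605, 0.118, 0.0773 and 0.0535), with no filter beyond 1 count (log2 fold change 0.04, adjusted p = 0.456) and at a threshold of 0.01, and AGBL3 was not called (-0.21, adjusted p = 0.598).

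Windows of 300 bases around the RefSeq starts, 250 before and 50 after, were found for 8 of the 10 members. The antioxidant response element core TGACNNNGC, searched on both strands, was present for 1 of them, AKR7A2, and in 16.1% of the 27305 genes with a window. TGATGNAAT, the composite site of ATF4 and C/EBP, was present for none of the 8 and in 1.22% of genes, and GCGTG, the xenobiotic response element core, for AKR7A2, AKR1B1 and AKR1E2 and in 40.6% of genes. No match says only that the letters are not in these windows. The exon-free part of the AKR7A2 window, chr1:19312147-19312325 on the minus strand, is shown because it holds all 3 matches to TGACNNNGC, in capitals, 1 of them on the opposite strand.
AKR7A2: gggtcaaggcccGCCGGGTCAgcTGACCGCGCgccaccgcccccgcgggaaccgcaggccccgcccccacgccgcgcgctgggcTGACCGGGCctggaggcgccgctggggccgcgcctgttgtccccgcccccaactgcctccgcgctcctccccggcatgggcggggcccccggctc

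Other genes of carbonyl chemistry were called in both directions, beside 35.0% higher and 35.2% lower over all tested genes. Of 17 tested aldehyde-oxidising genes 4 were higher and 11 lower, with a median log2 fold change of -0.61, and with the 5 CPM filter 2 of 14 were higher. ALDH1A1, which oxidises retinal, had 227 ± 2.02 CPM with Schisandrin B and 748 ± 7.17 CPM in vehicle (SD, n = 3 each; log2 fold change -1.72, edgeR adjusted p = 3.82e-16), ALDH7A1, a lysine catabolism enzyme, had -1.45, and ALDH1L2, a mitochondrial folate enzyme, had 2.13. Of 27 tested genes listed for carbonyl reduction by other families, 6 were higher, 9 lower and 12 neither (median -0.10). That list is broad, with SRD5A1, SRD5A3 and hydroxysteroid dehydrogenases in it, and its genes were not sorted by reaction. DCXR, a xylulose reductase, had -1.24, CBR3, a carbonyl reductase, -2.77 and RDH11, a retinal reductase, 0.85. Of 10 tested prostaglandin and retinoid genes 1 was higher and 6 lower (median -0.50). PTGR1, a prostaglandin reductase, had -1.12, CBR1, a carbonyl reductase, -0.93 and PTGES, a prostaglandin E synthase, -1.79. CBR1 is also counted among the 27 genes listed for carbonyl reduction. Of 6 tested genes listed for the polyol pathway and its glucose supply, AKR1B1 included, 2 were higher and 4 lower (median -0.62). The 2 higher were hexokinase HK2 (1.84) and the glucose carrier SLC2A1 (1.29), which do not make or oxidise sorbitol. The 4 lower were hexokinase HK1 (-0.73), AKR1B1 (-0.62), SORD, which oxidises sorbitol (-0.61), and KHK (-1.61). SORD and KHK were picked after their values were seen. Of 13 further superfamily genes listed, 12 had a row and 2 were tested, and the potassium channel subunits KCNAB3 and KCNAB2 had 2.37 and -0.70.

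NRF2 regulators and targets were called in both directions, beside 35.0% higher and 35.2% lower over all tested genes. Of 31 tested, 17 were higher, 10 lower and 4 neither (median log2 fold change 0.33). SLC7A11, the cystine carrier, had 2.48, HMOX1, heme oxygenase, 2.05, ABCC3, an export pump, 2.96, NFE2L2, which encodes NRF2, 0.74 and TXNRD1, thioredoxin reductase, 0.32, while KEAP1, which marks NRF2 for degradation, had -0.58, NQO1, a quinone reductase, -0.61 and GCLM, a subunit of glutathione synthesis, -0.06 without passing the test (adjusted p = 0.248; above 0 under upper-quartile scaling, the 5 CPM filter and FPKM). GCLC, the partner subunit of GCLM, was higher (1.21, edgeR adjusted p = 7.09e-08) and was picked after its values were seen.

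**Figure D5:**
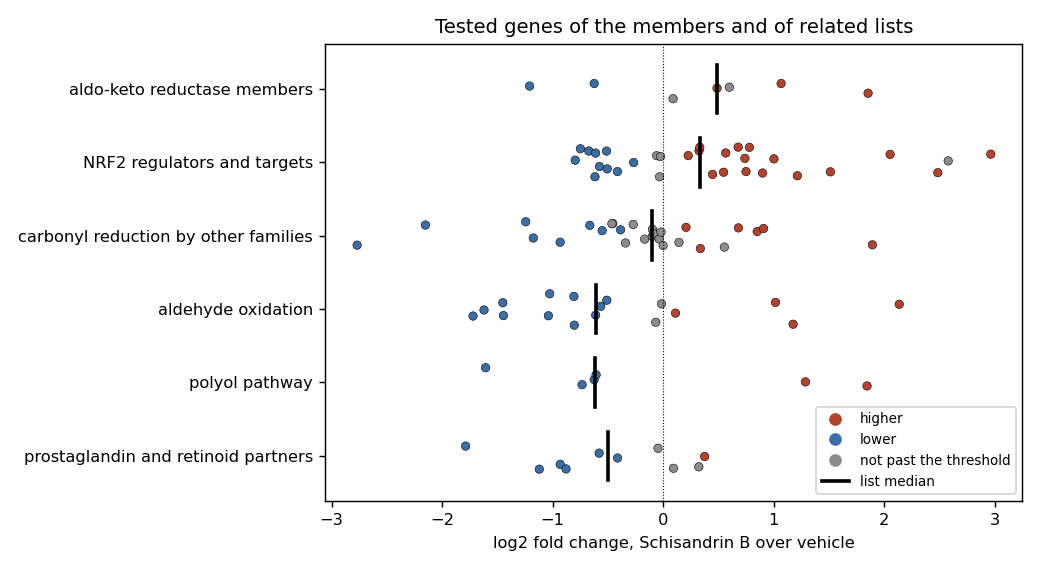
Log2 fold changes, Schisandrin B over vehicle, of the tested members and of the tested genes in each related list, 1 point per gene coloured by its call, with a line at each list's median. The aldehyde oxidation list has its median at -0.61 and the NRF2 list at 0.33, beside 0.0004 over all genes tested.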

How the data were processed

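PANC-1 RNA from 3 Schisandrin B and 3 vehicle libraries was made with a SMARTER mRNA-Seq kit, per the labels. The deposited values are whole-number counts per Ensembl gene, per the file headers. The authors also deposited FPKM, a ratio (fold change), its log2 value and p-values of a test that no header names. Builds GRCh38 and mm10 appear in the submitters' processing notes. No label or header names an aligner, counting tool or strand setting, so overlapping and antisense genes are uncertain. Groups and replicate numbers came from the titles.

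The members and the lists were chosen with earlier results of these data known. Counts were fitted over all genes with edgeR 4.0.16 in R 4.3.3: filterByExpr left 15773 genes, TMM scaling, and the robust quasi-likelihood F-test (two-sided), with p-values adjusted by Benjamini-Hochberg across the 15773 genes and called below 0.05. Dividing a log2 fold change by the square root of F gave its SE, and CPM use the TMM factors. Ratios between members added 0.5 to each count. In the deposited FPKM one gene outside the members, GPX4, is listed at 115801071 in Schisandrin B replicate 1, against 115 and 119 FPKM in Schisandrin B replicates 2 and 3 and 271, 280 and 273 FPKM in vehicle. Its counts and the members' values show no such jump, and it was left as deposited. Floors are 3 counts over a group. Reads are not independent molecules, so intervals and floors cover counting error only.

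Named genes were the 10 members, the 3 of smallest adjusted p in each list with NFE2L2, KEAP1, NQO1, GCLM, TXNRD1 and HMOX1, tested protein-coding neighbours within 500 kb and the 3 most like AKR1C1. Where a symbol had several rows the first was used. Alternatives were RLE, upper-quartile and total scaling, 2 low-count filters, DESeq2 1.42.0, voom of limma 3.58.1, limma on log2(FPKM + 0.1) and log2(FPKM + 1), a replicate block, a threshold of 0.01 and each library left out. Transcript stretches and coding identity used GENCODE release 29 and Biopython 1.88, stretch lengths being set after the files were seen. Protein identity was planned and not run, and the AKR1B10 to AKR1B1 ratio was not run because AKR1B10 had no count. The test was also run on simulated counts in which few genes were changed. In these data many genes were called, so that run does not cover a change this widespread. Figures used matplotlib 3.10.9.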

Additional observations from a re-analysis of the deposited data

How the results depend on the processing

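The 3 members called higher and the 2 called lower kept their calls under every alternative in which each was fitted. AKR1C1 ranged over 1.80 to 2.09, AKR1C2 over 0.59 to 1.18, AKR1E2 over 0.39 to 0.58, AKR1B1 over -0.68 to -0.54 and AKR7A2 over -1.26 to -1.13 (log2 fold change). AKR1A1 passed the threshold under upper-quartile scaling (0.15) and with at least 5 CPM in 3 libraries (0.17), and AKR1C3 passed only without vehicle replicate 2, its values with 1 library left out running from 0.40 to 0.88. The cause was not tested. AKR1C2 and AKR1C3 fall below the 5 CPM filter and could not be fitted there. The difference in the log2 ratio of AKR1C1 to AKR1C3 was 1.67 with FPKM in place of 1.24. GCLM turned to 0.0018 under upper-quartile scaling, 0.022 with the 5 CPM filter, 0.019 with FPKM + 0.1 and 0.018 with FPKM + 1. AGBL3 turned to 0.33 with FPKM + 0.1 and 0.15 with FPKM + 1, and ran from -0.62 to 0.0092 with 1 library left out, above 0 only without Schisandrin B replicate 3. None of these was called. Upper-quartile scaling moved the median of all genes to 0.06.

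The labels do not say that replicate numbers mark a shared culture or day, so libraries were not treated as paired. Deviations from the group mean had r = 0.0337, -0.0527 and -0.0113 across genes for libraries of the same number. For libraries of different numbers r ran from -0.0734 to 0.0854. With 3 libraries per group centred on their own mean, these values cannot decide whether libraries were paired. With the replicate number as a block, 3 members were higher and 2 lower, AKR1C1 had 1.85 and AKR1C2 1.06, and over all genes 5469 were higher and 5504 lower. Counts under 100 per library limit AKR1C2 and AKR1C3, and reads shared among AKR1C genes limit all of them.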
